A study of Homo sapiens with 4 samples.

Results

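Exosomes are small vesicles that form inside late endosomes and are released when these fuse with the plasma membrane. The genes described here encode the machinery that forms such vesicles and the machinery through which cells take vesicles up: tetraspanins, subunits of the ESCRT complexes, syndecans with syntenin, a sphingomyelinase, flotillins, clathrin, dynamin, EEA1 and ARF6. The list held 37 genes, and RAB GTPases were left out of it. Every probe set, the unit of measurement of an Affymetrix array, was kept where its annotation named 1 gene and that gene was on the list. This gave 111 probe sets of 35 genes, out of 44988 probe sets of 18132 genes that named 1 gene. The 3 probe sets of CHMP3 also name the read-through gene RNF103-CHMP3 and were left out, and PDCD6IP was not analysed here.

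The recipient cells in every array were LNCaP, an androgen-responsive human prostate cancer cell line kept in RPMI-1640 with fetal bovine serum. In 2 arrays they had been given exosomes of PC-3, a human prostate cancer line that grows without androgen. In the other 2 arrays they had been given PBS, a buffer, as the control. Dose and length of exposure are not used here, and nothing in the labels says whether the arrays of a group came from separate cultures. The p-values therefore measure the spread between these arrays, which may be technical.

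Tetraspanins cross the membrane several times and gather partner proteins into membrane domains; CD9, CD63 and CD81 are widely used as surface markers of exosomes. The ESCRT complexes act in sequence on the endosome: ESCRT-0 gathers ubiquitinated cargo, ESCRT-I and ESCRT-II bend the membrane inward, ESCRT-III filaments pinch the vesicle off, and the VPS4 ATPases take the filaments apart. A parallel route uses syndecans and their adaptor syntenin, and another uses ceramide made by a neutral sphingomyelinase. On the recipient side, vesicles can enter through clathrin and dynamin, through flotillin-rich membrane or by ARF6-dependent routes, and EEA1 tethers the early endosomes that receive them. The comparison asks whether LNCaP cells changed the transcripts of this machinery after contact with exosomes of another line.

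The deposited values are normalized, so the arrays' medians, 110.8 to 111.3 with exosomes and 112.0 to 112.4 with PBS, do not show how alike the arrays were before that step. The signal of the 3' control probe set over the 5' one, a sign of RNA integrity, was 6.82 and 5.39 in the exosome arrays, against 5.74 and 7.17 in the PBS arrays for actin. For GAPDH it was 1.35 and 1.34 in the exosome arrays, against 1.32 and 1.33 in the PBS arrays, and its part in the results was not tested. The LNCaP label was borne out by its markers. Of 10 listed 9 were measured, and all 9, among them KLK3, KLK2 and HOXB13, reached the median of all genes' mean levels. In the limma test 0 of the 9 passed. TMPRSS2 and TRPM8 were higher with p under 0.05 before adjustment, and 0 were lower. Summed over the list, intensity reached 44539 and 45551 in the exosome arrays, against 44673 and 44495 in the PBS arrays. Since the labels' text on RNA extraction speaks of brain, 9 brain markers were read too. GFAP, NEFL and MBP reached that median and the other 6 did not. Of the 9 brain markers 0 passed the limma test, with 1 higher and 1 lower with p under 0.05 before adjustment. At that level 5.76% of all genes were higher and 5.16% lower. A list of 16 transcripts that PC-3 expresses more than LNCaP was also read: 4 reached the median and 8 had estimates above 0. Of the 16, 2 rose in the limma test, LCN2 and CXCL8, beside 0.700% of all genes. LCN2 was called in 13 of 14 alternatives and CXCL8 in 8, and the call on CXCL8 was lost without exosome replicate 2, PBS replicate 1 or PBS replicate 2. The whole list summed to 2141 and 2257 in the exosome arrays, against 1943 and 1943 in the PBS arrays. Its 14 genes other than LCN2 and CXCL8 summed to 1471 and 1509 in the exosome arrays, against 1545 and 1535 in the PBS arrays. LCN2 and CXCL8 were set apart because they had passed, so a remainder without a rise was partly fixed in advance. Of that remainder VIM alone gave 506 and 543 in the exosome arrays, against 574 and 528 in the PBS arrays. Whether RNA carried by the PC-3 exosomes has a part in any value below was not tested.

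After PC-3 exosomes 0 of the 35 member genes passed the threshold in either direction in limma's test (adjusted p under 0.05 over 18132 genes). The background was 0.888% of all genes, 0.700% higher and 0.188% lower, so a list of this length would hold few calls at that rate. With p under 0.05 before adjustment, 6 members were higher and 1 was lower, 20.0% of the list against 10.9% of all genes. Of all genes 5.76% were higher at that level and 5.16% lower. The smallest adjusted p belonged to CD9, at 0.089. The fitted log2 fold changes, exosomes minus PBS, ran from -0.14 to 0.26, and their median was 0.024 against -0.012 over all genes. In absolute size the median was 0.038 among members and 0.063 among all genes. Of the 35 members 33 were at or above the median level of all genes. The shares and medians of all genes are thus not those of genes of like level. The 2 exosome arrays lay wholly above or below the 2 PBS arrays in 17 members, 12 higher and 5 lower. That is 48.6% of the members, beside 39.8% of all genes, 17.8% higher and 21.9% lower.

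**Figure D1:**
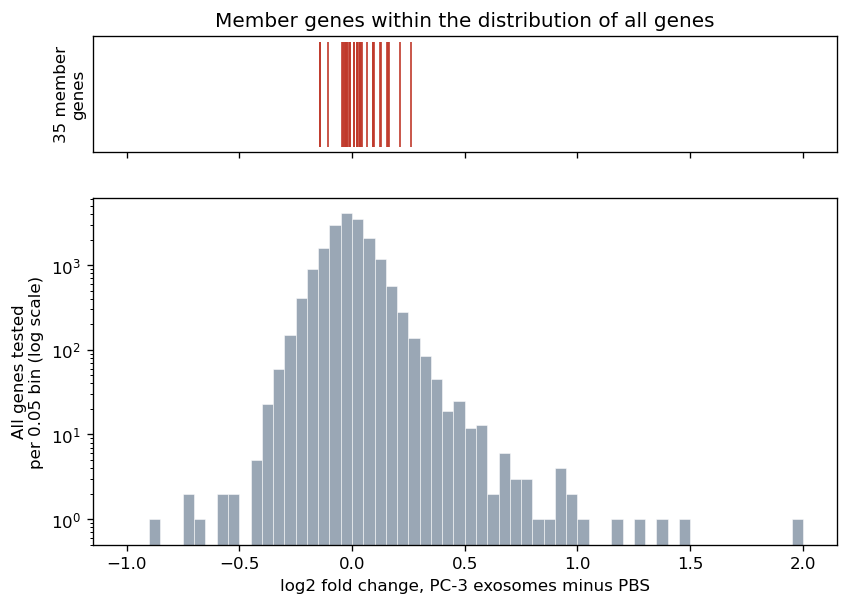
Each red line in the upper panel is the log2 fold change of 1 member gene, PC-3 exosomes minus PBS, and the grey bars below count all 18132 genes in bins of 0.05, on a log axis. The 35 members lie between -0.14 and 0.26, while all genes reach from -0.90 to 1.95.

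The precision of the arrays bounds how large an unseen change between these arrays could be. As their spread may be technical, it sets no bound across separate cultures. For 35 of 35 members the 95% confidence interval of the fold change, taken gene by gene, lay within 1.5-fold in either direction, as it did for 99.3% of all genes. For 28 of the 35 (80%) it lay within 1.2-fold, against 61.2% of all genes. The members were mostly of high level, and their median SE was 0.053 against 0.078 over all genes. SMPD3 lay near the level of the array's background controls, so its interval bounds the intensity and may say little on the transcript. The widest reach upward was that of SDC4, to 0.46 on the log2 scale, and the widest downward that of TSPAN13, to -0.30. These intervals hold for the deposited normalization. The poly-A spike-ins are RNAs of known identity meant to be put into each sample, and the array holds probe sets for them. The mean log2 value of these probe sets was 6.94 and 7.02 in the exosome arrays, against 6.90 and 6.77 in the PBS arrays. The mean of the exosome arrays was 0.14 higher, a difference similar in size to that between the 2 PBS arrays. Values set against the spike-ins are lower by that 0.14. On that scale the median was -0.12 among members and -0.15 among all genes, 5 of the 35 members stood above 0 in place of 21, and again 0 passed the limma threshold, beside 2.13% of all genes. With p under 0.05 before adjustment 0 members were higher and 6 lower (17.1%), beside 0.816% of all genes higher and 20.7% lower. Whether the spike-ins were added to these samples at all, and in the same amount per RNA, is not known here. All values set against them rest on that.

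**Figure D2:**
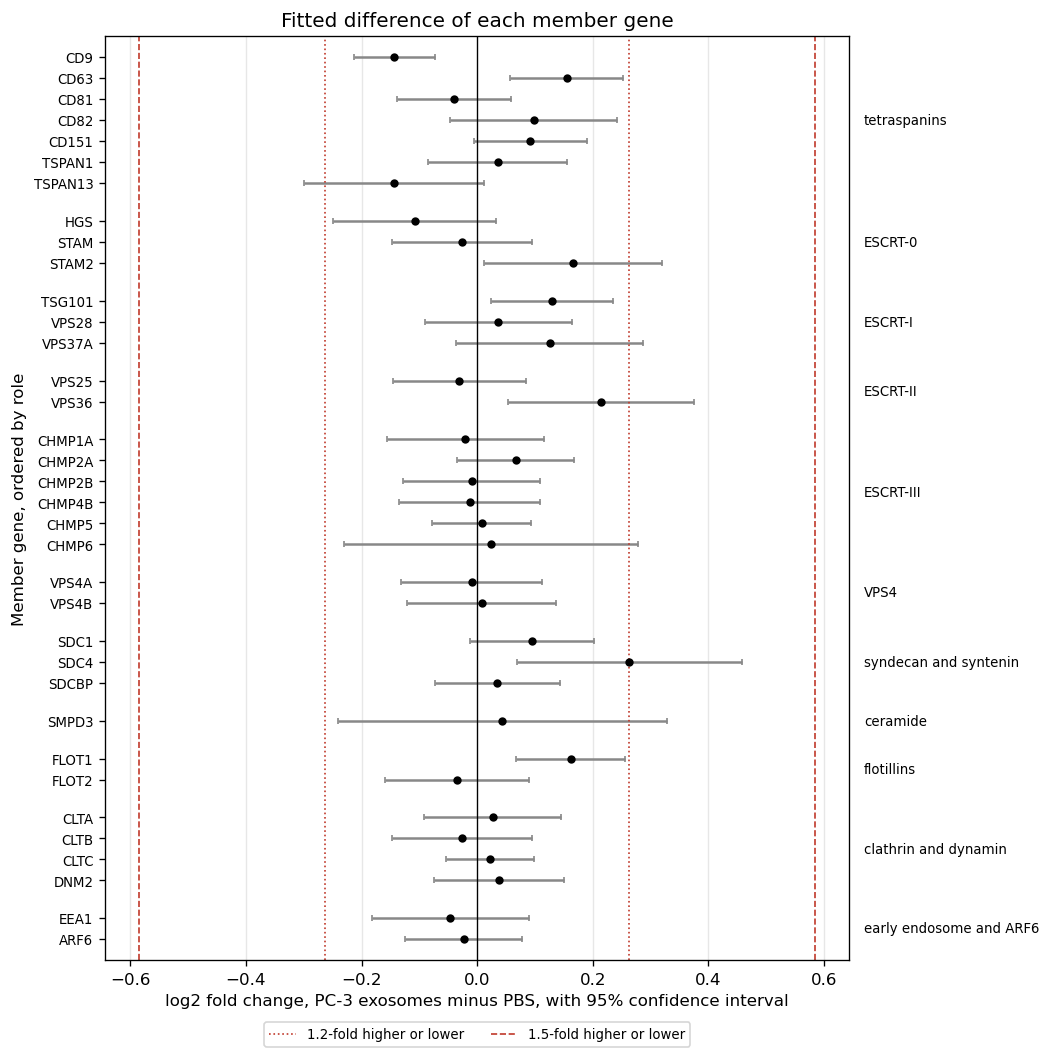
Points give the log2 fold change of each member gene, PC-3 exosomes minus PBS, with its 95% confidence interval from limma (2 arrays per group); genes are ordered by role. Dotted and dashed lines mark 1.2-fold and 1.5-fold, and every interval ends inside the dashed lines.

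Among the tetraspanins, CD9 had the lowest p of all members and was lower after exosomes. Its intensity was 13306 and 13463 with exosomes, against 14667 and 14897 with PBS. Both exosome arrays were below both PBS arrays, by a small margin relative to the level (log2 fold change -0.14, SE 0.031, adjusted p = 0.089, 95% interval -0.21 to -0.073). CD9 organises integrins and other adhesion proteins at the cell surface and is carried on exosomes. When genes of low intensity were left out and the model was fitted again, CD9 passed, with an adjusted p of 0.043 among genes at or above the 30th percentile and 0.018 at or above the median. Its unadjusted p was 0.00073 and 0.00038 in these fits, against 0.0012 over all genes, so more than the number of genes in the adjustment had changed. Over all 14 alternatives its adjusted p lay between 0.018 and 0.679, and its log2 fold change was below 0 in each.

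CD63, a tetraspanin of late endosomes and lysosomes that is sorted into exosomes, lay in the other direction. Its intensity was 4237 and 4224 with exosomes, against 3682 and 3923 with PBS. The exosome arrays differed from each other far less than the PBS arrays did, and the groups did not overlap (log2 fold change 0.15, SE 0.043, adjusted p = 0.202). Against the poly-A spike-ins its log2 fold change was 0.015, and that of CD9 -0.28. CD81, the other common exosome marker and a cell-surface partner of integrins and immune receptors, had 3508 and 3544 with exosomes, against 3740.0 and 3513 with PBS. Its groups overlapped, with PBS replicate 1 highest and the remaining 3 arrays close together (log2 fold change -0.040, 95% interval -0.14 to 0.059).

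The remaining tetraspanins had log2 fold changes between -0.14 and 0.097, with adjusted p from 0.484 to 0.883. CD82, known as KAI1 and as a suppressor of metastasis in prostate cancer, had 399.9 and 380.5 with exosomes, against 359.6 and 369 with PBS (log2 fold change 0.097). CD151, which binds laminin-binding integrins, had 3228 and 3391 with exosomes, against 3142 and 3066 with PBS (log2 fold change 0.092). In these probe sets the exosome arrays were the higher ones, and neither gene passed the test. The same held for both probe sets of CD82 but for only 2 of the 5 of CD151, which ranged from -0.027 to 0.094. TSPAN1 was nearly level, with 682 and 686 with exosomes, against 669 and 666 with PBS. TSPAN13, chosen after seeing its values for an estimate equal to that of CD9, had 3308 and 3401 with exosomes, against 3409.7 and 4026 with PBS (log2 fold change -0.14, SE 0.069). Here PBS replicate 2 alone stood high and PBS replicate 1 was level with the exosome arrays.

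**Figure D3:**
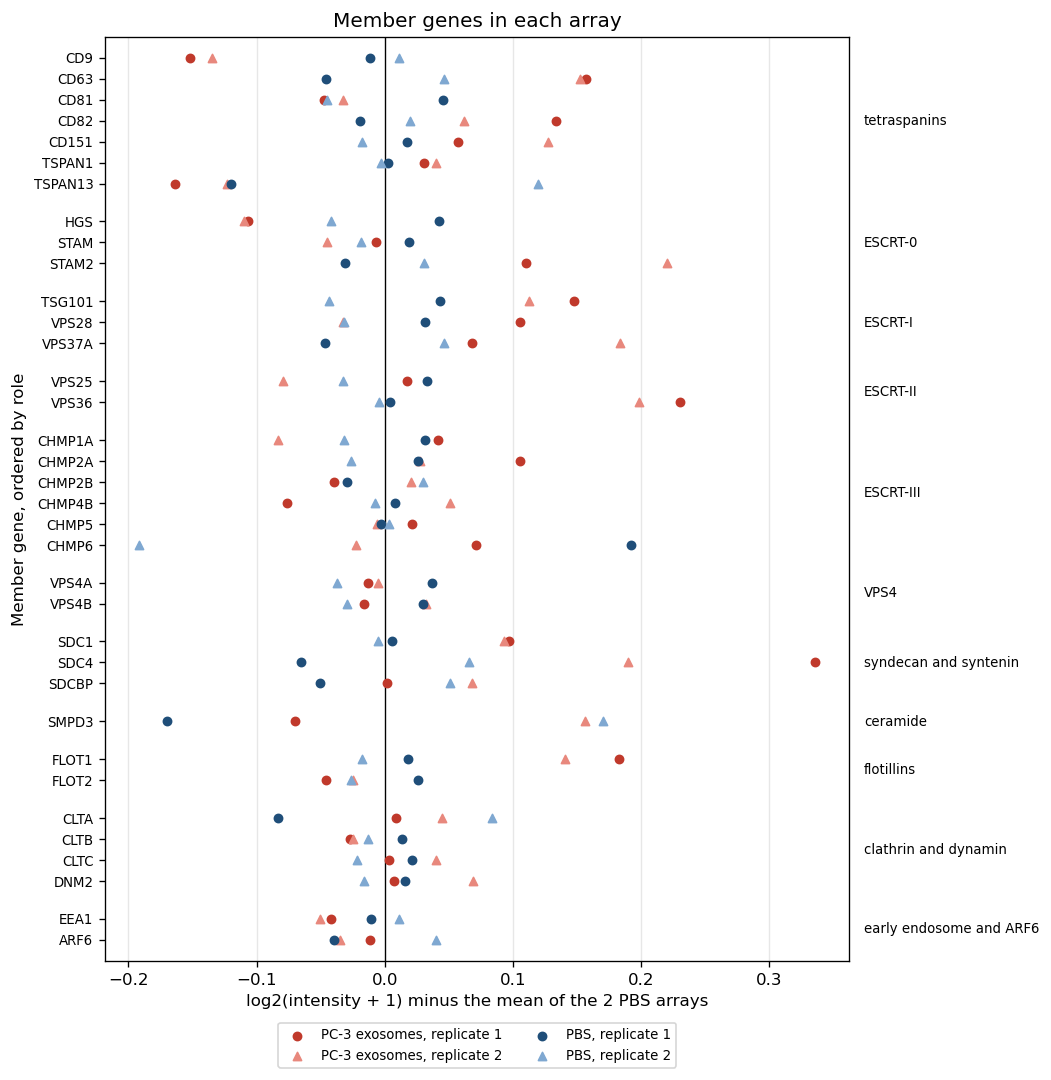
Each row is 1 member gene and each symbol 1 array, as log2(intensity + 1) minus the mean of the 2 PBS arrays. For CD9 both exosome arrays lie left of the PBS arrays, for CD63, FLOT1, VPS36 and SDC4 both lie right of them, and for most ESCRT-III, VPS4 and clathrin genes the 4 arrays are mixed.

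In ESCRT-0, which recognises ubiquitinated cargo through HGS and its partners STAM and STAM2, the estimates pointed in both directions. STAM2 had 370.1 and 399.5 with exosomes, against 336 and 350.3 with PBS. The exosome arrays were higher without overlap, but the adjusted p was 0.417 (log2 fold change 0.16, SE 0.068). HGS had 399 and 398 with exosomes, against 442 and 417 with PBS, with both exosome arrays lower (log2 fold change -0.11, adjusted p = 0.586). Its other probe set was at 0.089 with overlapping groups, the mean of both gave -0.0094, and without PBS replicate 1 the estimate was -0.066. STAM had a log2 fold change of -0.026 and overlapping groups. The other 3 probe sets of STAM2 lay between -0.048 and 0.032, so the difference was seen in 1 of its 4 probe sets.

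ESCRT-I had 3 measured subunits, and all 3 estimates were above 0 on the deposited scale. TSG101, the subunit that binds ubiquitin and the late-domain motifs used by budding viruses, had 2459 and 2399.6 with exosomes, against 2288 and 2154 with PBS. The groups did not overlap (log2 fold change 0.13, SE 0.047, adjusted p = 0.336). A pair of further TSG101 probe sets gave log2 fold changes of 0.0023 and -0.013, with overlapping groups. VPS37A had 338 and 367 with exosomes, against 312 and 333 with PBS (log2 fold change 0.13, adjusted p = 0.578). Without exosome replicate 2 the estimate was 0.068 and without PBS replicate 1 0.079, and its other probe sets were at 0.084 and -0.046 with overlapping groups. VPS28 had a log2 fold change of 0.036 with overlapping groups. Against the poly-A spike-ins TSG101 and VPS37A were at -0.0099 and -0.014, so their direction was not kept.

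ESCRT-II was measured through VPS36, which holds the ubiquitin-binding domain, and VPS25. VPS36 had 215 and 210.5 with exosomes, against 184 and 183 with PBS in the probe set with its highest mean. The arrays of each group lay close together and the groups were apart (log2 fold change 0.21, SE 0.071, adjusted p = 0.293). Its 8 probe sets disagreed, however, with 5 above 0 and 3 below and a range from -0.23 to 0.21, and the mean over them gave 0.019 (adjusted p = 0.970). The probe set at -0.23 was dim, with mean log2 values of 4.71 with exosomes and 4.93 with PBS. The array's background controls were at 5.63 to 5.67. Another, at -0.16, was above them, with 127 and 136 with exosomes, against 158 and 137 with PBS. VPS25 had 2012 and 1882 with exosomes, against 2034 and 1943 with PBS, with overlapping groups (log2 fold change -0.031).

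The ESCRT-III subunits, which form the filaments that cut the vesicle neck, were close to level in the probe set with the highest mean. Their 6 measured genes lay between -0.021 and 0.067, and 5 of the 6 had overlapping groups. CHMP2A, which helps to recruit VPS4, had 3330.2 and 3155 with exosomes, against 3152 and 3039 with PBS, with exosome replicate 2 only just above PBS replicate 1 (log2 fold change 0.067, adjusted p = 0.652). CHMP1A had 905 and 830.0 with exosomes, against 899 and 860.2 with PBS (log2 fold change -0.021). For CHMP5, with a log2 fold change of 0.0075, the 95% interval was -0.078 to 0.093. CHMP4B, the main filament subunit, was at -0.013 and CHMP2B at -0.0097. A further CHMP4B probe set was at -0.097, with 647 and 583 with exosomes, against 658 and 656 with PBS. Both exosome arrays were lower there, and its 95% interval was -0.25 to 0.060. Further probe sets of CHMP1A, CHMP2B and CHMP5 had overlapping groups and lay between -0.057 and 0.10. CHMP6, which links ESCRT-II to ESCRT-III, had the widest spread, with 331 and 311 with exosomes, against 360.4 and 276 with PBS, so that the PBS arrays enclosed both exosome arrays. The other CHMP6 probe set was at -0.068, with both exosome arrays lower.

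The ATPases that take ESCRT-III apart were level. VPS4A had 809 and 814 with exosomes, against 838 and 796 with PBS, and its 95% interval was -0.13 to 0.11 on the log2 scale. VPS4B had 616 and 637 with exosomes, against 636 and 610.2 with PBS, with an interval of -0.12 to 0.14. In both genes the groups overlapped. A dim probe set of VPS4B gave a log2 fold change of -0.26 from 28.3 and 29.2 with exosomes, against 37.7 and 32.0 with PBS. These log2 values are below the mean of the array's background controls, 5.63 to 5.67, which is no cutoff for a given probe set.

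Syndecans are heparan sulfate proteoglycans that bind vesicles at the surface and, with the adaptor syntenin (SDCBP), also take part in making them. SDC4 had the largest estimate of all members, with 196 and 177 with exosomes, against 148 and 163 with PBS. Both exosome arrays were higher, while the arrays within each group also differed (log2 fold change 0.26, SE 0.086, adjusted p = 0.288). Of its 3 probe sets, 2 gave 0.26 and 0.31 and the remaining one gave 0.038. Without exosome replicate 1 the log2 fold change was 0.19, and without PBS replicate 2 it was 0.33. SDC1 had 1208 and 1205 with exosomes, against 1134 and 1126 with PBS, a narrow separation with tight groups (log2 fold change 0.095, adjusted p = 0.516), and all 3 of its probe sets had the exosome arrays higher. Against the poly-A spike-ins SDC4 was at 0.12 and SDC1 at -0.045.

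SDCBP itself was level in the probe set with the highest mean, at 3343 and 3501 with exosomes, against 3224 and 3459 with PBS (log2 fold change 0.035). Its other 5 probe sets gave 0.058 to 0.23, and in each of them exosome replicate 2 was the highest array. One of them read 558 and 679.9 with exosomes, against 543 and 509 with PBS, so that exosome replicate 1 was close to PBS and exosome replicate 2 stood apart. SMPD3, the neutral sphingomyelinase that makes ceramide for vesicle budding, had 44.2 and 51.9 with exosomes, against 41.2 and 52.4 with PBS. Its groups overlapped, its level was near that of the background controls, and its 95% interval of -0.24 to 0.33 was among the widest of the members.

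Flotillins are scaffold proteins of cholesterol-rich membrane that mark a route of uptake without clathrin. FLOT1 had 3137 and 3047 with exosomes, against 2798 and 2730.2 with PBS. Each group was tight and the exosome arrays were higher (log2 fold change 0.16, SE 0.042, adjusted p = 0.161). Of its 6 probe sets, 5 had both exosome arrays above both PBS arrays, at 0.15 to 0.18, and the last was at -0.0014. These probe sets read transcripts of 1 gene and are not independent. Against the poly-A spike-ins FLOT1 was at 0.022. FLOT2, its partner in the same complexes, had 634 and 643 with exosomes, against 666 and 642 with PBS (log2 fold change -0.035, 95% interval -0.16 to 0.090). Whether FLOT1 and FLOT2 differ in their response was not tested.

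The coat and scission genes of clathrin-dependent uptake had estimates from -0.026 to 0.038. CLTC, the clathrin heavy chain, had 12001 and 12307 with exosomes, against 12153 and 11797 with PBS. Its 95% interval of -0.055 to 0.098 was narrow in this probe set, the one with its highest mean. All 5 CLTC probe sets lay between -0.10 and 0.062, 3 above 0 and 2 below. One of them read 2812 and 3602 with exosomes, against 3306 and 2810 with PBS, with an interval of -0.21 to 0.33. The light chains CLTA and CLTB were at 0.027 and -0.026. All 9 probe sets of CLTA lay between -0.023 and 0.052. DNM2, the GTPase that cuts coated pits from the membrane, had 1170.4 and 1221 with exosomes, against 1177 and 1151 with PBS (log2 fold change 0.038, 95% interval -0.075 to 0.15). EEA1, the tether of early endosomes, had 402 and 399 with exosomes, against 410.4 and 417 with PBS, with the exosome arrays slightly lower (log2 fold change -0.046, adjusted p = 0.857). ARF6, a GTPase of membrane recycling at the cell surface, had 2684 and 2641 with exosomes, against 2631 and 2781 with PBS and overlapping groups (log2 fold change -0.023).

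Taken probe set by probe set, 0 of 111 passed the limma threshold over 44988 probe sets, beside 0.258% of all of them, 0.238% higher and 0.0200% lower. With p under 0.05 before adjustment there were 14 higher and 7 lower, 18.9% against 8.87% of all probe sets, 4.73% higher and 4.14% lower. Of these 21, 6 were probe sets of CD9 and 5 of FLOT1, so they do not count as separate genes. The groups did not overlap in 43 of the 111 (38.7%), 28 higher and 15 lower, against 37.7% of all probe sets, 17.2% higher and 20.5% lower. In 28 genes with more than 1 probe set, 8 had all of them on the same side of 0: CD63, CD82, VPS28, CHMP4B, CHMP5, SDC1, SDC4 and SDCBP. CD9 had 8 of 9 below 0. In 6 of these 8 the groups did not overlap, with 7037 and 6757 with exosomes, against 7746 and 7652 with PBS in one and 6549.5 and 6786 with exosomes, against 7121 and 8239.6 with PBS in another, where PBS replicate 2 was well above PBS replicate 1. The probe set of CD9 above 0, at 0.25, was dim, with 67.2 and 65.4 with exosomes, against 51.5 and 59.8 with PBS. Both CD63 probe sets agreed, and the second had 2606 and 2555 with exosomes, against 2226 and 2389 with PBS.

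**Figure D4:**
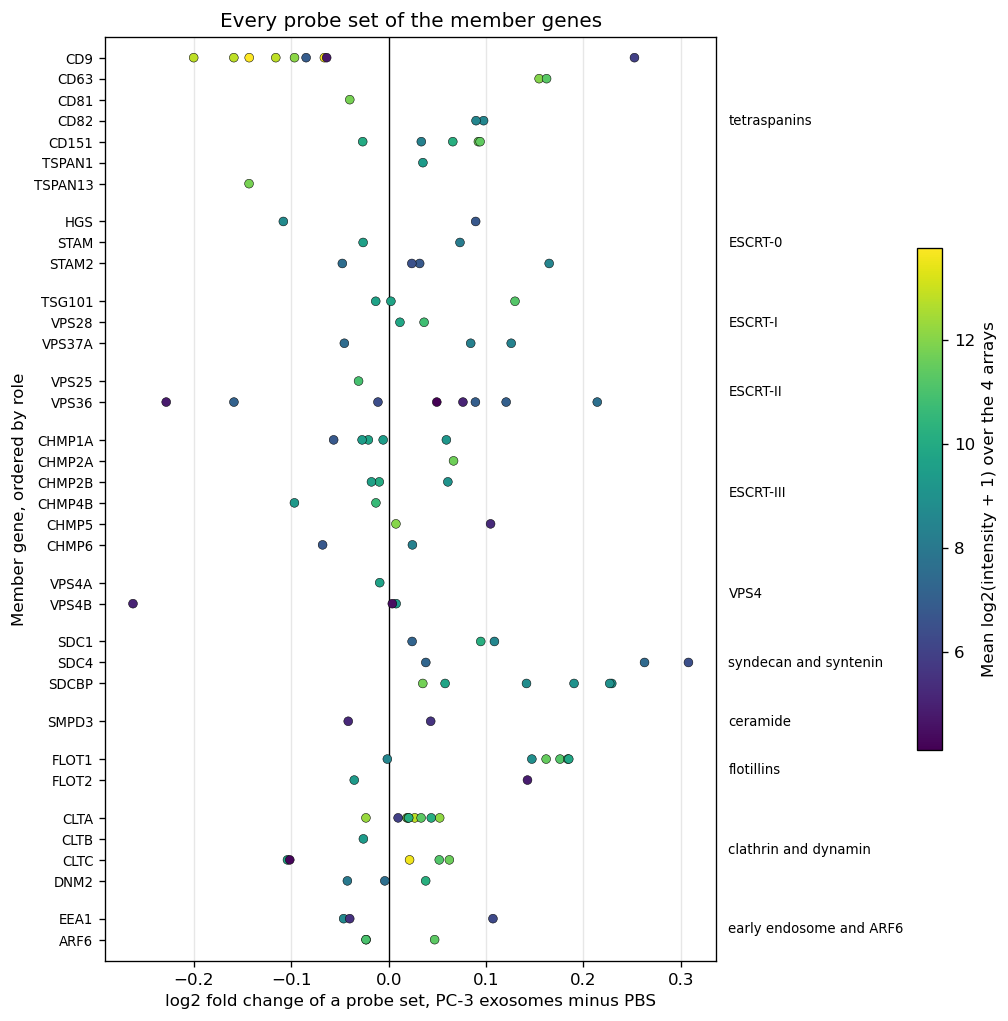
Each point is 1 of the 111 probe sets, placed by its log2 fold change (PC-3 exosomes minus PBS) and coloured by its mean log2(intensity + 1). The bright CD9 probe sets lie between -0.20 and -0.066, 5 of the 6 FLOT1 probe sets between 0.15 and 0.18, and those of VPS36 spread from -0.23 to 0.21. The VPS36 probe set at -0.23 is dim.

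Other genes of the same pathways were read from 8 lists with 188 measured genes. In limma's test 2 of them rose and 0 fell, 1.06% against 0.888% of all genes. With p under 0.05 before adjustment there were 25 higher (13.3%) and 4 lower (2.13%), beside 5.76% of all genes higher and 5.16% lower. The median log2 fold change was 0.029, against -0.012 over all genes. TSPAN15, a tetraspanin that partners the protease ADAM10, rose. It had 917 and 881 with exosomes, against 702 and 611 with PBS (log2 fold change 0.46, SE 0.071, adjusted p = 0.024), and it was the only 1 of 26 other tetraspanins to pass, in a list with a median of 0.0042. It was called in 9 of 14 alternatives. Among the calls lost were those without exosome replicate 1, exosome replicate 2 or PBS replicate 2 (log2 fold change 0.36 to 0.56 over the 4 arrays left out) and without a trend in eBayes (adjusted p = 0.182). The call was kept against the poly-A spike-ins, at 0.32 (adjusted p = 0.021). ARHGAP26, known as GRAF1 and needed for a clathrin-independent uptake route, rose as 1 of 16 genes of caveolae and macropinocytosis. It had 296 and 302 with exosomes, against 235 and 220.0 with PBS (log2 fold change 0.39, SE 0.070, adjusted p = 0.042). ARHGAP26 was called in 6 of 14 alternatives. Its call was lost with any 1 array left out (0.35 to 0.44), against the poly-A spike-ins (0.25), over the mean of its probe sets (0.24) and without a trend (adjusted p = 0.144).

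In the other 6 lists 0 genes passed the limma test. Their counts with p under 0.05 before adjustment stand beside 5.76% of all genes higher and 5.16% lower, and lists of this length give shares of low precision. Among 24 other ESCRT and associated genes the median was 0.043, 2 were higher and 0 lower with p under 0.05 before adjustment, and the smallest p was that of STAMBPL1, a deubiquitinase (log2 fold change 0.37, SE 0.101, adjusted p = 0.192). Among 22 genes of vesicle release and docking the median was 0.081, with 5 higher and 0 lower at that level, led by VAMP7, a SNARE of late endosomes and lysosomes (log2 fold change 0.17, adjusted p = 0.237). Genes for sphingomyelinases and ceramide numbered 14, with a median of 0.068 and 4 higher and 0 lower, led by CERS2, a ceramide synthase (log2 fold change 0.19, adjusted p = 0.123).

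Early endosome and sorting genes numbered 31, with a median of 0.032, 5 higher and 2 lower, led by VPS11, a core subunit of endosomal tethering complexes (log2 fold change 0.29, adjusted p = 0.213). Among 30 other clathrin adaptors and endocytic factors the median was -0.0073, with 3 higher and 1 lower, led by EPS15L1 (log2 fold change -0.22, adjusted p = 0.332). The 25 proteoglycans and vesicle receptors had a median of -0.0081, with 2 higher and 1 lower, led by the integrin subunit ITGAV (log2 fold change 0.18, adjusted p = 0.259). Against the poly-A spike-ins all of these medians are lower by 0.14, and each is then below 0.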

How the data were processed

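The authors deposited normalized intensities, linear, for each probe set. MAS5 and RMA are named, per the submitters' processing notes, without their roles. Probe sets were named from the platform annotation. Of 49395 probe sets 102 were controls, 1832 named several genes and 2473 none. Each gene was represented by its brightest probe set on average. Tests used limma 3.58.1 in R 4.3.3 on log2(value + 1), exosomes minus PBS, two-sided, with eBayes and a trend (2 residual and 7.0 prior degrees of freedom) and Benjamini-Hochberg adjustment over all genes, or over all probe sets. The code was tested on simulated data. With 2 arrays a group the smallest p of an exact two-sided permutation test is 0.333. The number of arrays limits the precision.

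The members and lists were chosen with earlier results of these data known. Values per array are given for each role's 2 members with the smallest p and for CD9, CD63 and CD81, 22 in all, and for others singled out after their values were seen. From each list up to 3 genes past the threshold were named, otherwise the gene of smallest p. Of 35 measured members 34 passed a filter at the 30th percentile of mean level and 33 one at the median. Figures were drawn with matplotlib 3.10.9.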

Additional observations from a re-analysis of the deposited data

How the results depend on the processing

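Over 14 alternatives 0 member genes were called higher in any, and 1, CD9, was called lower when only genes at or above the 30th percentile or the median were fitted, where both its unadjusted p and the number of genes in the adjustment were lower. Of the member probe sets 1, of CD9, was called lower at or above the median and against the poly-A spike-ins, where the members' median was -0.12. Over all genes 127 were called higher and 34 lower. The counts were 60 and 326 against the spike-ins, 213 and 84 at or above the median, and 18 and 3 without a trend. At or above the 30th percentile 57 were lower, and after quantile normalization 68. Leaving out 1 array gave 28 to 40 higher and 4 to 7 lower, and a members' median of 0.0090 to 0.032. Of the 2 pathway genes higher, 1 remained against the spike-ins and over the mean of probe sets, 0 without a trend, and 0 to 1 with an array left out. Against the spike-ins 2 were lower, ZFYVE16 and CYTH3. With the replicate number as a block, 2 genes were higher and 0 lower, 0 pathway genes were higher, and 0 members passed; LCN2 was at an adjusted p of 0.073, CXCL8 0.164, TSPAN15 0.166 and ARHGAP26 0.233. The numbers are not explained in the labels, and deviations of same-numbered arrays correlated at -0.04 over 18132 genes. From 2 pairs of arrays, already normalized, this cannot tell whether same-numbered arrays share a culture or a day.

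The log2 fold changes of several members changed sign, and against the spike-ins 5 of the 35 stood above 0 in place of 21. TSG101 and VPS37A, both at 0.13 on the deposited scale, were among the larger estimates. Against the spike-ins TSG101 was at -0.0099, VPS37A at -0.014, CHMP2A at -0.073, VPS4B at -0.13, SDC1 at -0.045, SMPD3 at -0.097, CLTC at -0.12 and DNM2 at -0.10. Over the mean of probe sets VPS4B was at -0.084, FLOT2 at 0.054, CLTC at -0.014, DNM2 at -0.0028, EEA1 at 0.0069 and ARF6 at 0.00025. VPS4B was at -0.011 after quantile normalization, and VPS4A at 0.0052 with arrays centred on their medians. With 1 array left out the ranges were -0.079 to 0.017 for VPS25, -0.083 to 0.041 for CHMP1A, -0.022 to 0.037 for VPS4B, -0.13 to 0.21 for SMPD3, -0.085 to 0.0052 for CD81, -0.046 to 0.028 for VPS4A and -0.063 to 0.017 for ARF6. The changes against the spike-ins follow from the constant shift of 0.14, and the cause of the others was not tested. The fits with 1 array left out leave 1 group with 1 array, whose spread is taken from the other group.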

Other observations

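CD63 and CD9 lay in opposite directions, and their gap within an array does not depend on how arrays are centred. The log2 value of CD63 minus that of CD9 came to -1.65 and -1.67 in the exosome arrays, against -1.99 and -1.92 in the PBS arrays. The difference between the groups, 0.30 on the log2 scale, was chosen after the values were seen and is given with no test for that reason. The gap itself compares different probe sets and is no ratio of transcripts.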
